A study of Mus musculus with 12 samples.

Results

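The bone morphogenetic protein (BMP) pathway and the inhibitor of differentiation (Id) genes were examined in sorted *Pdgfra*/GFP+ cells. The 10 genes are the ligands *Bmp2*, *Bmp4*, *Bmp6* and *Bmp7*, the type I receptors *Bmpr1a* and *Bmpr1b*, and *Id1*, *Id2*, *Id3* and *Id4*. They were taken by symbol from the 47069 distinct genes of the expression table, of which 18319 passed the filter on low values and were tested. All 10 were among those tested, and the lowest value of any of them in any library was 0.965 CPM (read counts scaled to a common library size, which the authors had adjusted per library), so none passed through its higher group alone.

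Total RNA-seq was available for 12 libraries in 4 groups of 3, from the (fore)brain and the spinal cord (here cord) of mice at embryonic stage E13.5, called embryonic, and on postnatal day 7 (P7), called postnatal. Cells in all 4 groups came from heterozygous Pdgfra-H2BGFP knock-in mice on a C57BL/6NJ background, in which *Pdgfra* drives a histone H2B fused to green fluorescent protein (GFP), so that nuclei of *Pdgfra*-expressing cells are labelled. No treatment was given and both sexes were used. The GFP protein outlasts the transcript, so that early differentiating oligodendrocytes can still be sorted, and at E13.5 *Pdgfra* is also made by mesenchymal cells of the meninges and vessels. Each library pooled cells of several animals. Papain was used to dissociate the postnatal tissue whereas the embryonic tissue was dissociated by mechanical means, and age and dissociation cannot be told apart. The labels do not say that the 3 pools of a group were made on separate occasions, and p-values measure the spread between these libraries, which may be technical in part.

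BMP ligands are secreted proteins of the transforming growth factor beta family that bind a complex of type I and type II receptor kinases, after which Smad1, Smad5 and Smad9 are phosphorylated and enter the nucleus with Smad4. The Id genes are classical direct targets of these Smads. Id proteins hold a helix-loop-helix domain but lack the basic region that contacts DNA, and they bind E proteins and so keep them from pairing with lineage factors such as Olig1 and Olig2. In the oligodendrocyte lineage BMP signalling is known to restrain the formation and differentiation of precursors and to favour astrocytic fates, and Id2 and Id4 are known as inhibitors of oligodendrocyte differentiation.

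On mouse build GRCm38, *Bmp2* lies at chr2:133552159-133562885 on the plus strand, *Bmp4* at chr14:46383520-46390669 on the minus strand, *Bmp6* at chr13:38345107-38500302 on the plus strand and *Bmp7* at chr2:172868012-172940321 on the minus strand. The receptor genes lie on the minus strand at chr14:34410734-34503341 (*Bmpr1a*) and chr3:141837136-142169425 (*Bmpr1b*). The Id genes are short and stand at 4 separate loci, *Id1* at chr2:152736251-152737410 (plus), *Id2* at chr12:25093799-25097140 (minus), *Id3* at chr4:136143497-136145755 (plus) and *Id4* at chr13:48261228-48266026 (plus). All values below are counts over the exons of these protein-coding genes.

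RefSeq promoter sequences (GRCm38.p6) were matched for 7 of the 10 genes. The 250 bases before the RefSeq start are shown for *Id2*, *Id3* and *Id4*, whose levels diverged with age, and for *Bmp4*, the ligand that rose in both regions. Capitals mark GGCGCC, a GC-rich element of Smad1 and Smad5, GTCTG or its reverse complement CAGAC, the Smad box, and CAGCTG, an E box, each searched on both strands. The windows for *Id2* and *Id3* lie inside the longer gene models whose coordinates are given above.
Id2, chr12:25096093-25096342, minus strand: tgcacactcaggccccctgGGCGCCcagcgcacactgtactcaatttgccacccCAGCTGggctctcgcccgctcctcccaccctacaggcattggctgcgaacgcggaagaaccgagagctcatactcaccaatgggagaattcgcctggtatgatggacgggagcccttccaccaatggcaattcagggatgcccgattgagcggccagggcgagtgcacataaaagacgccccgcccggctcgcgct
Id3, chr4:136143572-136143821, plus strand: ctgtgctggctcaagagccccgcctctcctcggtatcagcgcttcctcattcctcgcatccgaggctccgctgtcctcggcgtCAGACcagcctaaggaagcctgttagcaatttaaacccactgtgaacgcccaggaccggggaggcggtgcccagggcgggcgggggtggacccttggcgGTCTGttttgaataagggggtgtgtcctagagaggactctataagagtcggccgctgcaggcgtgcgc
Id4, chr13:48260866-48261115, plus strand: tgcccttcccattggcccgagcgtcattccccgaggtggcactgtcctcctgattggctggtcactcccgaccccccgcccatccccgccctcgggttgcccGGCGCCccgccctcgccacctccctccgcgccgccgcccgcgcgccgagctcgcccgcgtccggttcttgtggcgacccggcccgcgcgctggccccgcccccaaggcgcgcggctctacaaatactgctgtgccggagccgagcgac
Bmp4, chr14:46390670-46390919, minus strand: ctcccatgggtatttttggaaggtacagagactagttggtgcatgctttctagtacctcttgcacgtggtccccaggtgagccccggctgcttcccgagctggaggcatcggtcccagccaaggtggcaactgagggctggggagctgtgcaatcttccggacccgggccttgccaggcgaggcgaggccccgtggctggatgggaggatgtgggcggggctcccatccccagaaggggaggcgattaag

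Counted back from the start, the first base of GGCGCC was at -231 in *Id2* and at -148 in *Id4*, the E box of *Id2* was at -196, and the Smad box letters of *Id3* were at -167 and -68. Of 32851 promoters of the same length, 9.59% held GGCGCC, 42.2% held GTCTG or CAGAC and 13.001% held CAGCTG. The *Bmp4* window held none of these letters. A match describes the sequence and is not evidence of a bound site.

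Recovered reads ranged from 12566345 to 19903022 per library at E13.5 and from 25276708 to 38790312 at P7. Embryonic cord replicate 3 stood apart, with the deposited scaling at 0.472 of its reads where the other 11 libraries had 0.955 to 1.20, and 3 reads were worth 0.506 CPM in it. P7 replicates 1 and 2 were close to each other in both regions, with a chi-square per degree of freedom over genes of 2.43 in brain and 3.65 in cord, where other pairs of P7 libraries gave 17.9 to 24.7. They still differed by more than counting noise and were kept as separate libraries, and averaging them changed no call among the 10 genes. In postnatal brain the deposited library sizes were 13.1% to 16.3% above those given by TMM scaling, while in all other libraries they were equal to them. Against TMM, the deposited scaling thus lowers every postnatal brain value by 0.18 to 0.22 on the log2 scale and leaves the other groups unchanged.

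The 8 markers of oligodendrocyte precursors were detected in every library and all 8 were called higher at P7 in both regions, their summed level being 1318 to 2385 CPM in embryonic brain, 661 to 1123 in embryonic cord, 9101 to 10315 in postnatal brain and 7849 to 7942 in postnatal cord. Markers of committed precursors and newly formed oligodendrocytes summed to 211 to 352, 183 to 270, 4124 to 5411 and 6860 to 7287 CPM in the same order, 7 of 8 being called higher with age in each region. *Prom1* went the other way, called lower in brain (mean of 86.2 CPM at E13.5 and 19.7 at P7) and lower but not called in cord (79.9 and 46.1). *Mog* was at 0 in 3 E13.5 libraries and *Neu4* in 1. Markers of vascular and leptomeningeal cells summed to 6195 to 9317, 12326 to 13448, 1375 to 1788 and 1289 to 2757 CPM, with 6 of 8 called lower with age in brain and 8 of 8 in cord, and none of them was at 0 in any library. Over the 12 libraries, the summed levels of the other lists ran from 402 to 1100 CPM for pericytes, 21.003 to 116 for endothelium, 4.78 to 505 for choroid plexus (*Otx2* at 0 in 3 libraries), 0.121 to 30.6 for roof plate and cortical hem (*Lmx1a*, *Wnt1*, *Wnt3a* and *Wnt8b* were each at 0 in 2 to 5 libraries), 114 to 180 for astrocytes, 802 to 1700 for radial glia, 372 to 905 for neurons, 14.7 to 71.0 for microglia and 2.73 to 111 for erythroid cells. The pericyte list holds *Cspg4*, which is also a precursor marker, so that its sum is not specific to pericytes. *Cspg4* alone had a mean of 781 CPM in postnatal brain and 756 in postnatal cord. Among the 6 pericyte markers, the age calls in cord numbered 5 lower and 1 higher, and those in brain 2 in each direction.

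The first question was how the BMP and Id genes differed between E13.5 and P7. In brain, *Bmp2* and *Bmp4* rose while *Bmpr1b*, *Id1*, *Id3* and *Id4* fell. In cord, *Bmp4* and *Id2* rose while *Bmp6*, *Bmpr1b*, *Id1*, *Id3* and *Id4* fell. A gene was called where the Benjamini-Hochberg adjusted p of limma on log2(CPM + 0.5), over the 18319 genes, was under 0.05 and the change was more than 2-fold. By that rule 6 of 10 were called in brain (2 higher and 4 lower) where 27.7% of all genes were (11% higher and 16.7% lower), and 7 of 10 in cord (2 higher and 5 lower) where 35.1% were (16.9% higher and 18.2% lower). The median log2 change of the 10 was -0.42 in brain and -1.27 in cord, beside -0.19 and 0.12 over all genes tested. At any fold, 61.3% of all genes in brain and 70% in cord passed the p threshold, the background for the changes below 2-fold given here. Under TMM scaling the all-gene median in brain was -0.016, and the share of calls that were higher with age in brain was 39.7% with the deposited scaling, 49.3% with TMM and 50.2% with median-ratio scaling. In bulk samples of this kind, fewer cells of a type and less RNA per cell cannot be told apart.

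**Figure D1:**
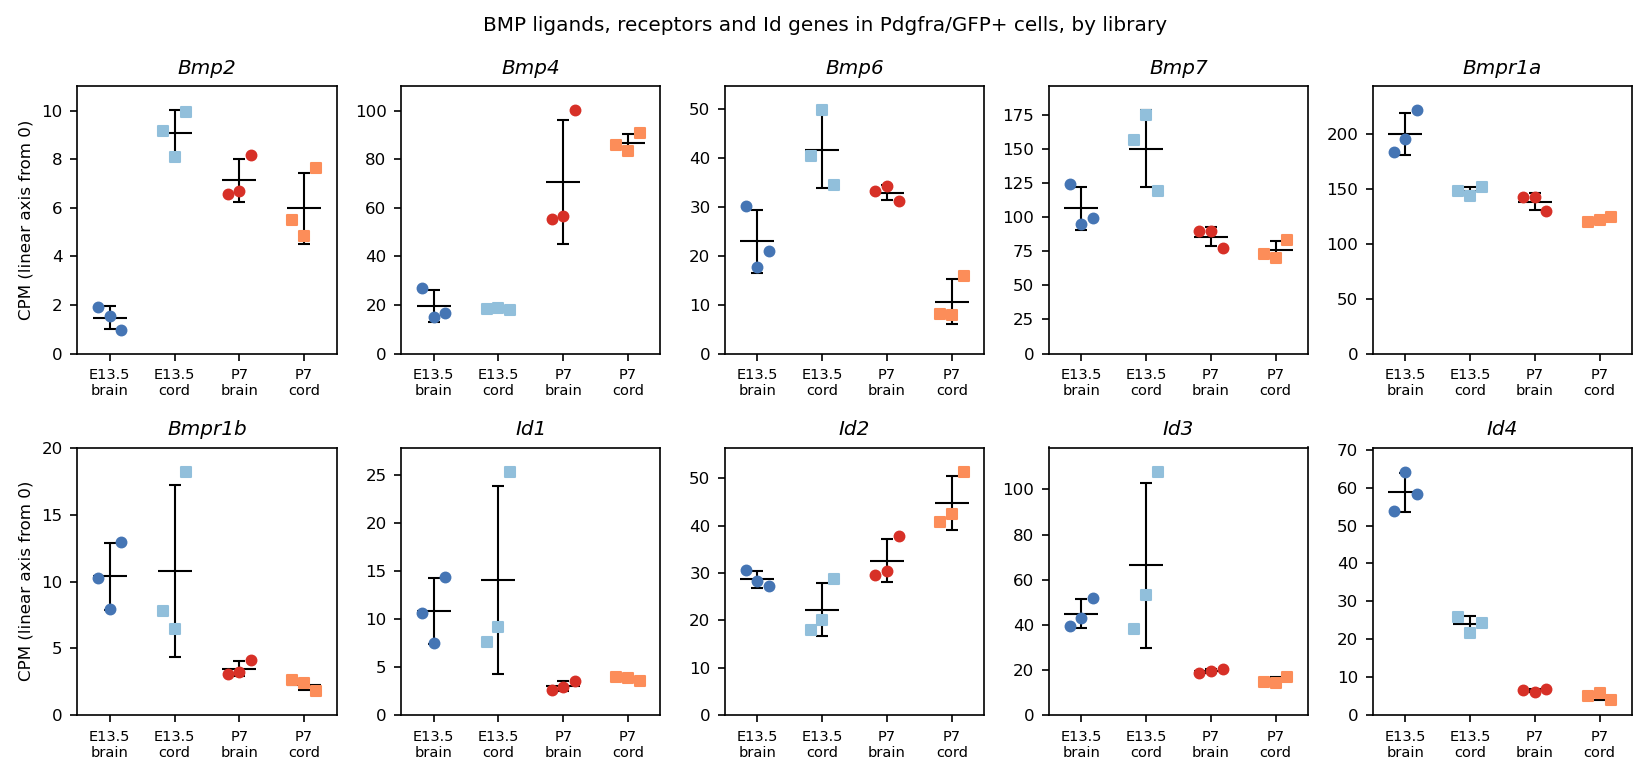
CPM of the 10 genes in each of the 12 libraries, on linear axes from 0, with the mean as a bar and the SD as whiskers (n = 3 per group, replicates 1 to 3 from left to right). *Bmp4* sits at 55.4 CPM or more in all P7 libraries and at 26.9 or less in all E13.5 libraries, *Id4* shows the reverse order, and replicate 3 is the highest embryonic cord library for *Bmpr1b*, *Id1*, *Id2* and *Id3*.

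*Bmp4*, a ligand studied for its block of oligodendrocyte differentiation, had 26.9, 15.0 and 16.8 CPM in the embryonic brain libraries and 18.3, 18.7 and 17.7 in embryonic cord. At P7 it had 55.4, 56.5 and 100.2 CPM in brain and 85.8, 83.3 and 90.96 in cord. Every P7 library lay above every E13.5 library, and postnatal brain replicate 3 was well above the other postnatal brain libraries. The log2 change was 1.81 ± 0.23 (SE) in brain (limma, adjusted p = 1.84e-05, 3.52-fold) and 2.22 ± 0.23 in cord (limma, adjusted p = 2.05e-06, 4.65-fold). Without postnatal brain replicate 3 the brain change was 1.54 and was still called. That library also had the highest sum of committed precursor and newly formed oligodendrocyte markers in postnatal brain, 5411 CPM beside 4124 and 4142. It stood out more for choroid plexus markers (505 CPM beside 63.4 and 62.6) and microglia markers (50.9 beside 24.6 and 25.5). Of all marker lists, only those of oligodendrocyte precursors, radial glia and neurons had their lowest postnatal brain sum in it. In its single-cell data the study named *Bmp4* and *Neu4* as hallmarks of committed precursors, and it found such cells at P7. The part of committed precursors and of the other cells named here in the *Bmp4* level was not tested.

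*Bmp2*, the closest relative of *Bmp4* among the ligands, followed another course. It had 1.90, 1.54 and 0.965 CPM in embryonic brain, resting on 18 to 40 reads, and 9.17, 8.09 and 9.95 in embryonic cord. It had 6.57, 6.68 and 8.16 CPM in postnatal brain and 5.48, 4.84 and 7.63 in postnatal cord. Embryonic brain was thus the low group, and the other 3 groups were close, with P7 libraries of the 2 regions overlapping. The age change was 1.98 ± 0.21 in brain (limma, adjusted p = 3.97e-06, 3.94-fold). In cord it was -0.58 ± 0.21, which passed the p threshold (limma, adjusted p = 0.0243) at under 2-fold.

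*Bmp6* fell with age in cord alone. It had 30.1, 17.7 and 21.02 CPM in embryonic brain, 40.4, 49.7 and 34.4 in embryonic cord, 33.1, 34.2 and 31.2 in postnatal brain, and 8.13, 7.77 and 15.9 in postnatal cord. The postnatal cord libraries were lower than all 9 others, and replicate 3 was the highest of them. The log2 change in cord was -1.98 ± 0.25 (limma, adjusted p = 1.46e-05, 3.94-fold) and in brain 0.54 ± 0.25 (limma, adjusted p = 0.0779). Vascular and leptomeningeal markers were also highest in postnatal cord replicate 3 among the postnatal cord libraries, at 2757 CPM beside 1321 and 1289, and without it the cord change was -2.30. *Bmp6* shares 224 exon bases with *Txndc5* on the opposite strand, which had 80.3 to 240 CPM, and since the use of strand in counting is not stated, some of its reads may be those of *Txndc5*.

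*Bmp7*, a ligand made by meninges and neural progenitors in the embryo, had 125, 95.3 and 99.4 CPM in embryonic brain, 157, 175 and 119 in embryonic cord, 90.0, 89.7 and 77.6 in postnatal brain, and 73.2, 70.3 and 83.3 in postnatal cord. With the deposited scaling the P7 libraries lay below the E13.5 libraries in both regions. Under TMM scaling, which raises postnatal brain alone, the brain libraries of the 2 ages overlap. The cord difference was -0.97 ± 0.14 (limma, adjusted p = 5.86e-05), just short of 2-fold, and it passed 2-fold without embryonic cord replicate 3 (-1.13) or postnatal cord replicate 3 (-1.04). In brain the difference was -0.30 ± 0.14 (limma, adjusted p = 0.0853).

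Set against exon length, the order of the ligands changed with age. At E13.5 *Bmp7* had the highest level, 26.5 ± 3.95 CPM per kb in brain and 37.4 ± 7.01 in cord (SD, n = 3). *Bmp4* then had 8.72 ± 2.85 in brain and 8.12 ± 0.224 in cord, near *Bmp6* with 5.88 ± 1.64 and 10.6 ± 1.97, and the *Bmp4* and *Bmp6* libraries overlapped in brain but not in cord. At P7 *Bmp4* led, with 31.4 ± 11.4 CPM per kb in brain and 38.6 ± 1.73 in cord, beside 21.3 ± 1.77 and 18.8 ± 1.70 for *Bmp7*, and the libraries of the 2 genes did not overlap in either region. *Bmp2* was the lowest ligand in each group by its mean, between 0.413 and 2.55 CPM per kb.

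The type I receptors differed from each other in level and in course. *Bmpr1a*, the widely expressed receptor also called ALK3, had 184, 195 and 222 CPM in embryonic brain, 148, 144 and 152 in embryonic cord, 142, 143 and 129.7 in postnatal brain, and 119.6, 122 and 124 in postnatal cord. With the deposited scaling the 4 groups did not overlap and ran downward in that order, but the steps were small. Under TMM scaling, which leaves the other groups unchanged and raises postnatal brain, the libraries of embryonic cord and postnatal brain overlap. With age it was lower by a log2 change of -0.53 ± 0.09 in brain (limma, adjusted p = 1.83e-04) and -0.28 ± 0.09 in cord (limma, adjusted p = 0.0119), both under 2-fold.

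*Bmpr1b*, the receptor also called ALK6 with a more restricted expression, had 10.3, 7.95 and 12.98 CPM in embryonic brain, 7.80, 6.45 and 18.2 in embryonic cord, 3.09, 3.21 and 4.09 in postnatal brain, and 2.62, 2.41 and 1.80 in postnatal cord. Each P7 library was lower than each E13.5 library. It fell by 1.44 ± 0.31 in brain (limma, adjusted p = 0.00155, 2.72-fold) and by 1.90 ± 0.31 in cord (limma, adjusted p = 1.44e-04, 3.73-fold). Without embryonic cord replicate 3, which had 18.2 CPM, the cord change was -1.46 and was still called. Per kb of exon, *Bmpr1a* stood at 19.2 to 31.5 CPM in the group means and *Bmpr1b* at 0.382 to 1.82.

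Of the Id genes, *Id4* changed most and with little spread. It had 53.8, 64.2 and 58.2 CPM in embryonic brain, 25.9, 21.6 and 24.3 in embryonic cord, 6.72, 6.02 and 6.79 in postnatal brain, and 5.02, 5.80 and 4.03 in postnatal cord. The 4 groups did not overlap. *Id4* fell by 3.08 ± 0.13 in brain (limma, adjusted p = 2.15e-09, 8.44-fold) and by 2.17 ± 0.13 in cord (limma, adjusted p = 1.94e-08, 4.51-fold), and leaving out any library kept the change between -3.14 and -3.01 in brain and between -2.29 and -2.05 in cord.

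*Id1*, the Id gene most often read as a marker of BMP signalling, had 10.6, 7.47 and 14.3 CPM in embryonic brain, 7.62, 9.16 and 25.3 in embryonic cord, 2.57, 2.88 and 3.59 in postnatal brain, and 3.97, 3.86 and 3.51 in postnatal cord. It was lower in each P7 library than in each E13.5 library. It fell by 1.65 ± 0.36 in brain (limma, adjusted p = 0.0015, 3.14-fold) and by 1.57 ± 0.36 in cord (limma, adjusted p = 0.00173, 2.96-fold). The cord change without E13.5 replicate 3 was -1.05, still called and just past 2-fold.

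*Id3*, which is often expressed together with *Id1*, had 39.5, 43.0 and 52.1 CPM in embryonic brain, 38.2, 53.1 and 108 in embryonic cord, 18.6, 19.6 and 20.6 in postnatal brain, and 14.9, 14.3 and 16.8 in postnatal cord. The P7 libraries were tightly grouped and all below the E13.5 libraries, while embryonic cord replicate 3 was higher than any other library. It fell by 1.94 ± 0.27 in cord (limma, adjusted p = 3.56e-05, 3.85-fold), and by 1.53 without that library. In brain the change was -1.16 ± 0.27 (limma, adjusted p = 0.00256, 2.24-fold), and under TMM scaling it was -0.98 and no longer past 2-fold. Most vascular and leptomeningeal markers (6 of 8 in brain, 8 of 8 in cord) fell over the same comparisons, and their part in the changes of *Id1*, *Id3*, *Id4*, *Bmpr1b* and *Bmp6* was not tested.

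*Id2* went the other way. It had 30.6, 28.3 and 27.1 CPM in embryonic brain, 18.0, 20.1 and 28.7 in embryonic cord, 29.7, 30.4 and 37.8 in postnatal brain, and 40.7, 42.4 and 51.3 in postnatal cord. The brain libraries of the 2 ages overlapped, and the cord libraries did not. *Id2* rose by 1.01 ± 0.16 in cord (limma, adjusted p = 1.01e-04, 2.02-fold), and the change in brain was 0.18 ± 0.16 (limma, adjusted p = 0.359). The cord call was just inside the 2-fold limit and was lost without embryonic cord replicate 1 (0.88), embryonic cord replicate 2 (0.95) or postnatal cord replicate 3 (0.91), the adjusted p staying under 0.05.

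**Figure D2:**
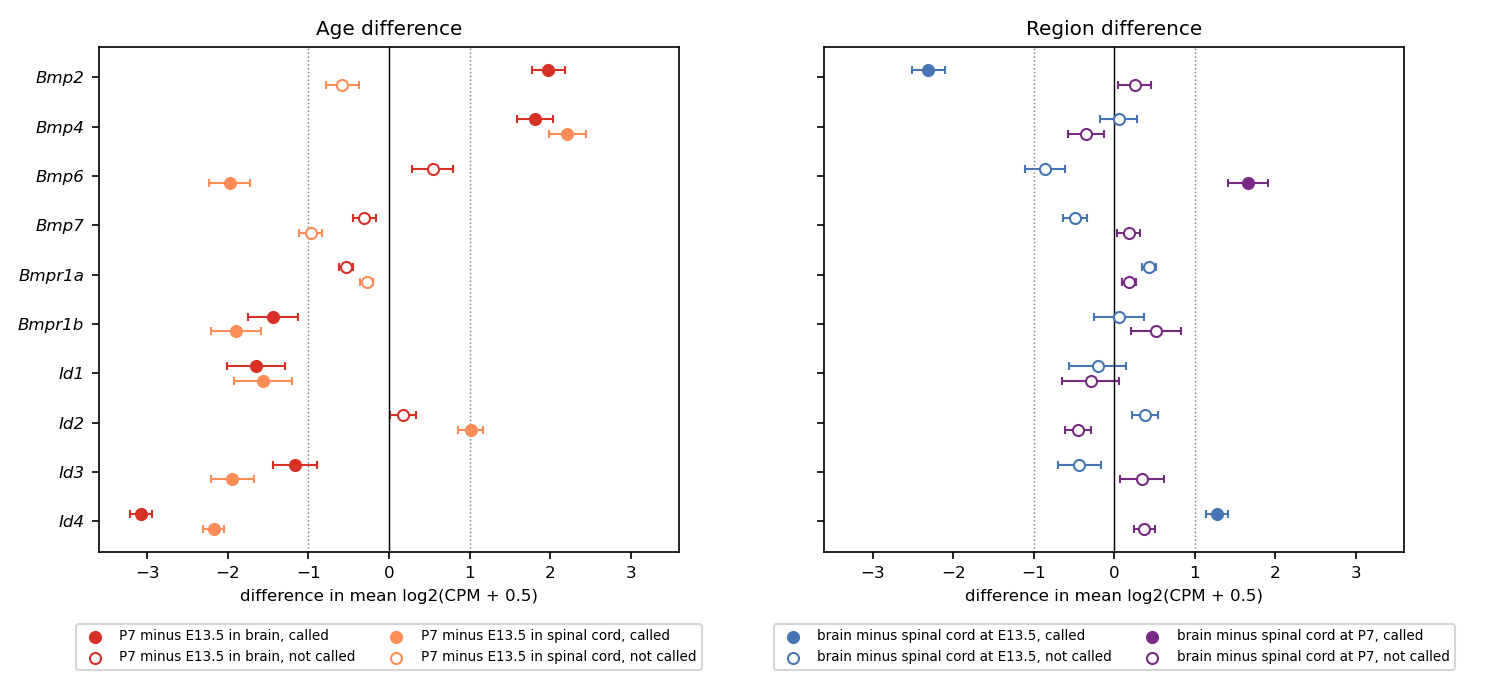
Differences in mean log2(CPM + 0.5) for the 10 genes, with standard errors, for age (left) and region (right). Filled symbols were called and dotted lines mark 2-fold. *Bmp4* lies past the right dotted line and *Bmpr1b*, *Id1*, *Id3* and *Id4* past the left in both regions, whereas among the region differences *Bmp2* and *Id4* at E13.5 and *Bmp6* at P7 are filled.

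Per kb of exon, *Id3* had the largest share of the summed Id transcripts at E13.5 and *Id2* at P7. *Id2* made up 19.3% ± 2.68 of the summed CPM per kb in embryonic brain and 15.1% ± 3.03 in embryonic cord, and 46.6% ± 1.78 in postnatal brain and 58.2% ± 2.47 in postnatal cord (SD, n = 3). *Id3* made up 40.7% ± 2.40 and 56.2% ± 4.86 at E13.5 and 38.4% ± 2.04 and 27.2% ± 0.701 at P7. *Id4* went from 24.97% ± 3.09 to 5.94% ± 0.567 in brain and from 11.1% ± 4.85 to 4.14% ± 1.00 in cord. *Id1* contributed between 9.04% and 17.6% in the group means. These shares do not depend on the scaling between libraries, since all 4 genes of a library carry the same factor.

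**Figure D3:**
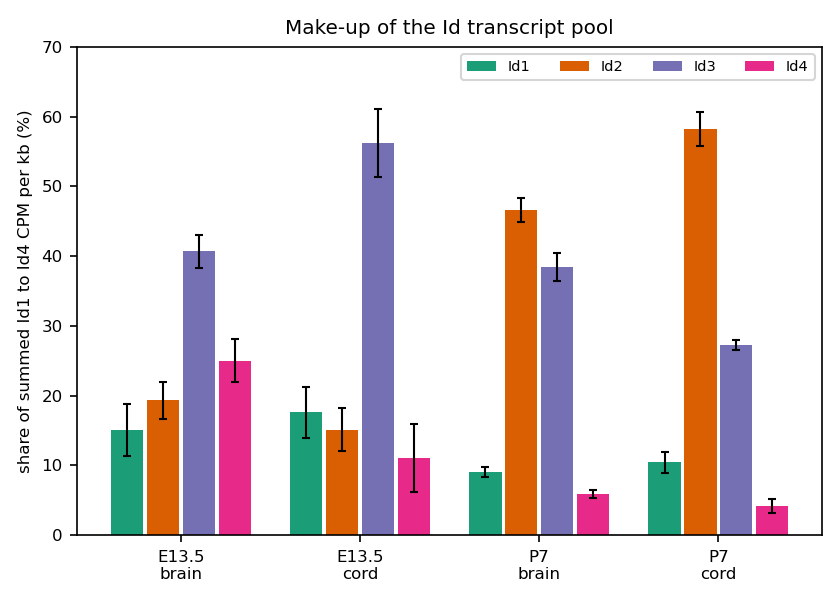
Share of each Id gene in the summed CPM per kb of Id1 to Id4, as the mean of 3 libraries per group with the SD as error bars, on an axis from 0. *Id3* has the tallest bar in both E13.5 groups and *Id2* in both P7 groups, at 46.6% in brain and 58.2% in cord.

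The second question was how brain and cord differed at each age. At E13.5, *Bmp2* was lower and *Id4* higher in brain than in cord, and these 2 of 10 were called (1 higher and 1 lower) where 8.71% of all genes were (3.53% higher and 5.17% lower). The difference was -2.31 ± 0.21 for *Bmp2* (limma, adjusted p = 5.14e-06, 4.95-fold) and 1.28 ± 0.13 for *Id4* (limma, adjusted p = 1.69e-05, 2.42-fold), with the library values given above. *Bmpr1a* (0.43), *Bmp6* (-0.86) and *Bmp7* (-0.49) passed the p threshold at under 2-fold, with adjusted p of 0.00219, 0.0193 and 0.0209 (limma), as 32.6% of all genes did at any fold. The *Bmp6* difference reached -1.07 and was called without embryonic brain replicate 1. That library had the highest embryonic brain values of *Bmp2*, *Bmp4*, *Bmp6* and *Bmp7*. Its choroid plexus markers summed to 343 CPM beside 30.6 and 58.2, and those of roof plate and cortical hem to 30.6 beside 8.56 and 12.1. Its sums were the lowest in embryonic brain for both oligodendrocyte lineage lists, astrocytes and radial glia. The part of these cells in the ligand levels was not tested. *Id1* and *Id3* differed by -0.21 ± 0.36 and -0.43 ± 0.27 (limma, adjusted p = 0.7 and 0.252). Without embryonic cord replicate 3 these values were 0.31 and -0.015, so that their sign or size at E13.5 rested on that library.

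At P7, *Bmp6* alone among the 10 was called between regions, where 6.62% of all genes were (2.27% higher and 4.35% lower in brain). Its 31.2 to 34.2 CPM in brain stood against 7.77 to 15.9 in cord, a difference of 1.66 ± 0.25 (limma, adjusted p = 4.20e-04, 3.16-fold), and of 1.98 without postnatal cord replicate 3. Of the vascular and leptomeningeal markers 3 of 8 were called higher in brain over the same comparison and none lower (list median 0.25). These were *Slc6a13* with a mean of 83.5 against 32.3 CPM, *Igf2* with 262 against 96.6 and *Foxc1* with 26.6 against 12.3. *Col3a1*, *Col1a1*, *Col1a2* and *Dcn*, not called, had lower means in brain, *Col3a1* with 435 against 810 CPM and *Col1a1* with 167 against 231. *Lum*, also not called, had a higher mean there. Of 6 pericyte markers 1 was called, *Vtn*, with 230.2 against 75.8 CPM. The part of these cells in the *Bmp6* difference was not tested. *Bmp2* and *Bmp4*, called in other comparisons, had differences of 0.25 ± 0.21 and -0.35 ± 0.23 (limma, adjusted p = 0.395 and 0.276). *Id2* was lower in brain by a log2 difference of -0.45 ± 0.16 (limma, adjusted p = 0.0497) and *Id4* higher by 0.37 ± 0.13 (limma, adjusted p = 0.0506), where 30% of all genes passed at any fold. Against the deposited scaling the median gene was at -0.19 in this comparison, and under TMM scaling it was at -0.018 and these 2 differences were -0.27 and 0.55. The share of called genes that were higher in brain was 34.3% with the deposited scaling and 46.8% with TMM.

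The third question was whether the age change itself differed between regions, which the interaction of age and region tests. *Bmp2* and *Bmp6* were called, both with a more positive age change in brain, where 16.3% of all genes were called (6.66% in that direction and 9.66% in the other). For *Bmp2* the interaction was 2.56 ± 0.29 (limma, adjusted p = 4.45e-05), with age changes of 1.98 in brain and -0.58 in cord. For *Bmp6* it was 2.52 ± 0.35 (limma, adjusted p = 1.84e-04), with age changes of 0.54 in brain and -1.98 in cord, and 3 of the 8 vascular and leptomeningeal markers were called in the same direction. Of all interaction calls 40.8% were positive with the deposited scaling, 55.0% with TMM and 63.9% with median-ratio scaling. *Id4* fell more in brain than in cord by 0.90 ± 0.19 (limma, adjusted p = 0.00245), *Id2* had the more positive change in cord (-0.84 ± 0.23, adjusted p = 0.0113) and *Bmp7* the more negative change there (0.67 ± 0.20, adjusted p = 0.0207), all at under 2-fold, where 39.8% of all genes passed the p threshold. *Id4* passed 2-fold without postnatal cord replicate 3 (-1.03) and *Id2* without embryonic cord replicate 3 (-1.03). For *Bmp4*, *Id1* and *Id3* the interaction was -0.40 ± 0.32, -0.08 ± 0.50 and 0.78 ± 0.38 (limma, adjusted p = 0.343, 0.912 and 0.128), which leaves differences of some size between the regions undetected.

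**Figure D4:**
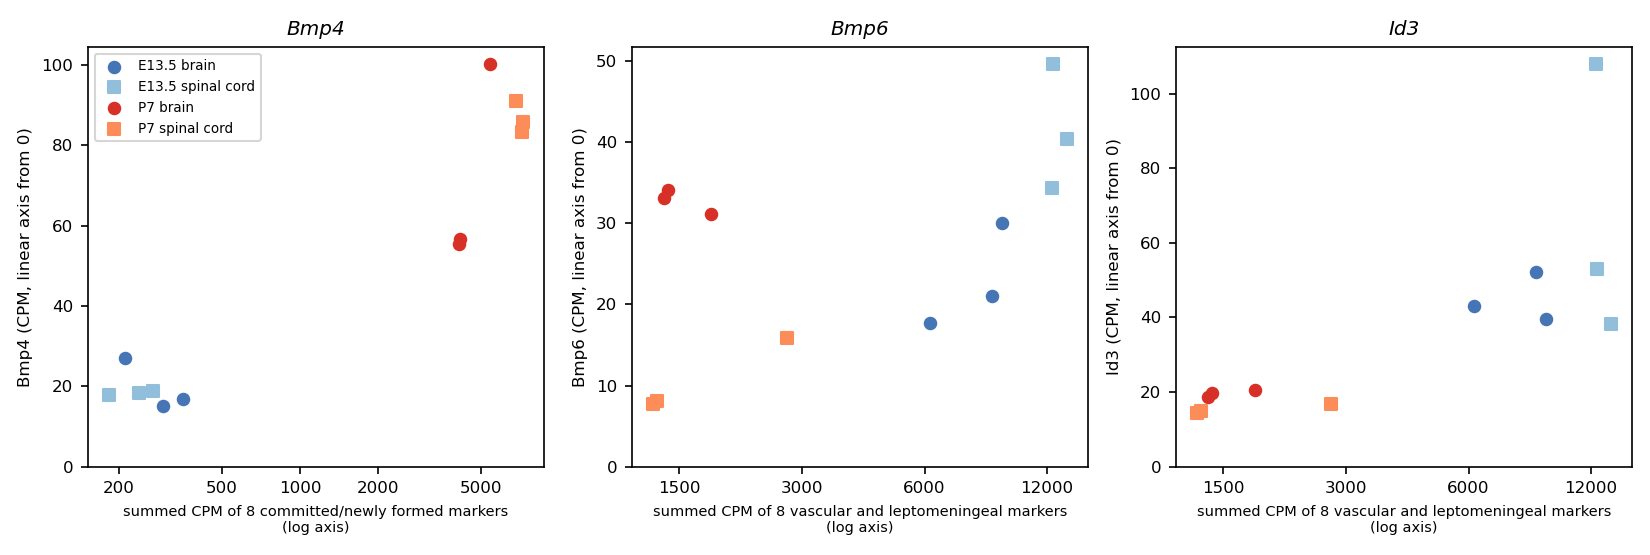
CPM of *Bmp4*, *Bmp6* and *Id3* (linear axes from 0) against the summed CPM of 8 marker genes (log axes) in the 12 libraries, markers of committed precursors and newly formed oligodendrocytes for *Bmp4* and of vascular and leptomeningeal cells for the others. Postnatal brain has 31.2 to 34.2 CPM of *Bmp6* at marker sums of 1375 to 1788 CPM and postnatal cord 7.77 to 15.9 at 1289 to 2757, and postnatal brain replicate 3 is high on both axes for *Bmp4*.

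The wider pathway was described with 60 further genes in 6 lists by role, of which 50 were tested. In brain 18 of the 50 were called with age (4 higher and 14 lower, median log2 change -0.30 beside -0.19 over all genes), where 27.7% of all genes were, and in cord 24 (9 higher and 15 lower, median -0.39 beside 0.12), where 35.1% were. Between regions 14 were called at E13.5 (7 in each direction) and 7 at P7 (2 higher and 5 lower in brain), where 8.71% and 6.62% of all genes were, and 16 in the interaction, where 16.3% were. The counts by role that follow stand against 11% of all genes higher and 16.7% lower with age in brain, and 16.9% higher and 18.2% lower in cord.

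Among the other ligands, 5 of 10 were tested, and 2 were called lower with age in brain (list median 0.056) and 4 in cord (-1.24), with none higher. *Bmp5*, a close relative of *Bmp7*, had 50.8 to 73.8 CPM in embryonic brain, 51.1 to 87.4 in embryonic cord, 9.36 to 10.96 in postnatal brain and 5.40 to 8.38 in postnatal cord. It fell by 2.53 ± 0.21 in brain (limma, adjusted p = 5.01e-07) and by 3.28 ± 0.21 in cord (limma, adjusted p = 2.90e-08). *Bmp3*, an atypical ligand that can oppose the others, was lower in brain than in cord at both ages, by a log2 difference of -1.36 at E13.5 (2.52 to 4.70 against 7.42 to 9.65 CPM) and -1.19 at P7 (4.45 to 4.96 against 10.4 to 12.8 CPM), the latter -0.98 and not called under median-ratio scaling. *Gdf6* had 0.893 to 1.52 CPM in embryonic cord and at most 0.324 in any library of the other groups. *Gdf5* had 0.615 to 1.81 CPM in embryonic brain and 0.675 to 0.834 in embryonic cord, and at most 0.331 CPM at P7. *Gdf6* passed the filter on low values only through the embryonic cord libraries and *Gdf5* only through E13.5 libraries, where they were high. Their calls with age therefore had to follow, as did the *Gdf6* calls between regions at E13.5 (-1.51) and in the interaction. The counts above, which include them, are no support. The sizes of change depend on the pseudocount, the *Gdf5* change in brain being -1.19 here and -2.34 by limma-voom on recovered reads. With a pseudocount of 1 the calls were lost for *Gdf5* in brain (-0.82) and cord (-0.77) and for *Gdf6* in cord (-0.94), and the *Gdf5* brain call was lost without embryonic brain replicate 1 (-0.95).

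Among 8 tested receptors and co-receptors beside *Bmpr1a* and *Bmpr1b*, 3 were called lower with age in each region and none higher, with list medians of -0.60 in brain and -0.75 in cord. *Acvrl1*, a type I receptor best known from endothelium, had 8.46 to 9.49 CPM in embryonic brain, 6.98 to 12.5 in embryonic cord, 1.24 to 2.06 in postnatal brain and 1.40 to 1.73 in postnatal cord, a log2 change of -2.22 ± 0.21 in brain and -2.25 ± 0.21 in cord. *Rgmb*, a co-receptor of the repulsive guidance family, had 35.7 to 42.1, 88.0 to 109.7, 9.59 to 16.03 and 27.1 to 27.9 CPM in the same order. It was thus lower in brain than in cord at both ages (-1.36 and -1.18, the latter not called under TMM scaling, -0.998, or median-ratio scaling, -0.96) and lower at P7 than at E13.5 in both regions (-1.66 and -1.83). *Acvr2b*, a type II receptor, was called lower with age in brain (-1.34 ± 0.16) and *Eng*, which encodes the co-receptor endoglin, in cord (-1.34 ± 0.22). Endothelial markers summed to 48.5 to 80.0 CPM in embryonic brain, 90.8 to 116 in embryonic cord, 27.5 to 35.6 in postnatal brain and 21.003 to 27.1 in postnatal cord. Of 6 such markers 1 was called higher and 1 lower with age in brain (list median -0.24), and 5 lower in cord (-1.25), and their part in the changes of *Acvrl1* and *Eng* was not tested.

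Of 15 tested secreted antagonists and modulators, 5 were called with age in brain (1 higher and 4 lower) and 7 in cord (2 higher and 5 lower), with medians of -0.31 and -0.41. *Fstl1*, a follistatin-like glycoprotein, had 422 to 567 CPM in embryonic brain, 641 to 669 in embryonic cord, 115 to 122.6 in postnatal brain and 74.0 to 146 in postnatal cord, and it fell by 2.05 ± 0.21 and 2.82 ± 0.21 with age. *Nbl1*, an antagonist of the DAN family, had 47.6 to 67.9, 77.8 to 133, 20.97 to 21.7 and 15.4 to 22.1 CPM and fell by 1.41 ± 0.19 in brain, and fell by 2.498 ± 0.19 in cord. *Fst*, which encodes follistatin, went from 2.09 to 4.22 CPM over the E13.5 libraries to at most 0.0909 at P7. *Grem1*, which encodes gremlin, had 2.49 to 3.04 CPM in embryonic cord and at most 0.808 in any other library. Both passed the filter on low values only through E13.5 libraries, and their calls with age, which the counts above include, had to follow. *Grem1* was called with age in cord (-2.19) and not in brain (-0.54). For *Grem1* the embryonic cord libraries that let it in are also its high group between regions at E13.5. The postnatal cord library with 146 CPM of *Fstl1* and 22.1 of *Nbl1* was replicate 3, that with the most vascular and leptomeningeal marker RNA at P7.

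All 11 Smads and negative regulators were tested, with medians of 0.012 in brain and 0.25 in cord, and 1 was called lower in each region while 3 were called higher, in cord. *Smad6*, an inhibitory Smad induced by BMP, had 10.5 to 13.9 CPM in embryonic brain, 16.3 to 28.5 in embryonic cord, 1.45 to 1.88 in postnatal brain and 0.524 to 0.999 in postnatal cord. It was the 1 gene of the list called with age in brain, falling by 2.55 ± 0.21 (limma, adjusted p = 5.76e-07, 5.86-fold), and it fell by 4.09 ± 0.21 in cord (limma, adjusted p = 5.43e-09, 17.05-fold). *Smad7*, the other inhibitory Smad, had 11.6 to 12.6, 14.3 to 20.1, 13.1 to 20.2 and 42.3 to 61.3 CPM, and it rose by 1.67 ± 0.18 in cord (limma, adjusted p = 3.32e-06, 3.19-fold). *Smurf1*, a ubiquitin ligase for Smads and receptors, had 48.1 to 51.8, 56.4 to 65.0, 42.3 to 59.6 and 98.9 to 139 CPM, and rose in cord by 1.02 ± 0.14. At P7 both were lower in brain than in cord, *Smad7* by -1.71 ± 0.18 and *Smurf1* by -1.32 ± 0.14. *Smad9*, a receptor-activated Smad, rose in cord by 1.099 ± 0.23 from 1.73 to 3.38 CPM to 5.75 to 6.36. The *Smad9* call was lost without embryonic cord replicate 1 (0.88) and with a pseudocount of 1 (0.98). That of *Smurf1* was lost under median-ratio scaling (0.92), with P7 replicates 1 and 2 averaged (0.95) and without embryonic cord replicate 3 (0.98) or postnatal cord replicate 1 (0.92) or 2 (0.97).

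All 5 tested transcription factors downstream of BMP were called with age in brain, 1 higher and 4 lower, and 3 in cord, 1 higher and 2 lower, with medians of -1.40 and -0.94. *Msx1*, a homeobox gene induced by BMP in dorsal tissue, had 56.0 to 69.8 CPM in embryonic brain, 1.73 to 4.72 in embryonic cord, 4.54 to 5.73 in postnatal brain and 0.869 to 1.36 in postnatal cord. The E13.5 region difference was 4.39 ± 0.27 (limma, adjusted p = 2.04e-07, 20.9-fold), with no overlap. Over that comparison markers of roof plate and cortical hem summed to 8.56 to 30.6 CPM in brain and 1.86 to 2.76 in cord. Choroid plexus markers summed to 30.6 to 343 CPM in brain and 5.48 to 6.75 in cord, 3 of 6 being called higher in brain and 0 lower. The part of either was not tested. *Msx2* had 2.33 to 3.7003 CPM in embryonic brain, 0.711 to 1.18 in embryonic cord and at most 0.0992 at P7, and since it passed the filter only through E13.5 libraries its calls with age had to follow. In cord its call was lost with a pseudocount of 1 (-0.83). *Gata2*, named after its values were seen, was counted among the 4 lower in brain (-1.01) at no more than 1.47 CPM in any library, and it too passed only through E13.5 libraries. *Atoh8*, a basic helix-loop-helix factor, fell from 2.90 to 3.97 CPM to 0.697 to 1.09 in brain and from 4.29 to 7.42 to 0.648 to 1.08 in cord. *Hey1*, which responds to BMP and to Notch, rose instead, from 11.5 to 14.3 CPM to 36.6 to 47.9 in brain (1.67 ± 0.16) and from 3.54 to 5.36 to 31.7 to 41.4 in cord (2.92 ± 0.16).

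Of the 6 E proteins and basic helix-loop-helix factors that Id proteins oppose, none was called lower with age at the 2-fold threshold, and the medians were 0.057 in brain and 1.23 in cord. Below 2-fold, and chosen here after their values were seen, the E proteins *Tcf3* and *Tcf12* passed the p threshold with lower levels at P7. *Tcf3* went from 108.4 to 109.05 CPM to 56.0 to 58.9 in brain, a log2 change of -0.92 ± 0.12 (limma, adjusted p = 2.03e-05), and changed by -0.44 ± 0.12 in cord (limma, adjusted p = 0.00421). *Tcf12* changed by -0.38 ± 0.13 in brain (limma, adjusted p = 0.0211, and 0.223 under TMM scaling) and by -0.44 ± 0.13 in cord (limma, adjusted p = 0.00824). *Olig2* and *Olig1* are the factors that specify the lineage, and both are also precursor markers. *Olig2* had 40.4 to 98.2 CPM in embryonic brain, 18.4 to 32.5 in embryonic cord, 441 to 468 in postnatal brain and 509 to 525 in postnatal cord. It rose by 2.66 ± 0.28 in brain and 4.48 ± 0.28 in cord, and *Olig1* by 2.83 ± 0.28 and 4.15 ± 0.28. In both regions *Id4*, *Id1* and *Id3* were therefore lower, and *Olig1* and *Olig2* higher, in the P7 libraries. *Id2* was not lower, with a log2 change of 0.18 in brain (not called) and 1.01 in cord.

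**Figure D5:**
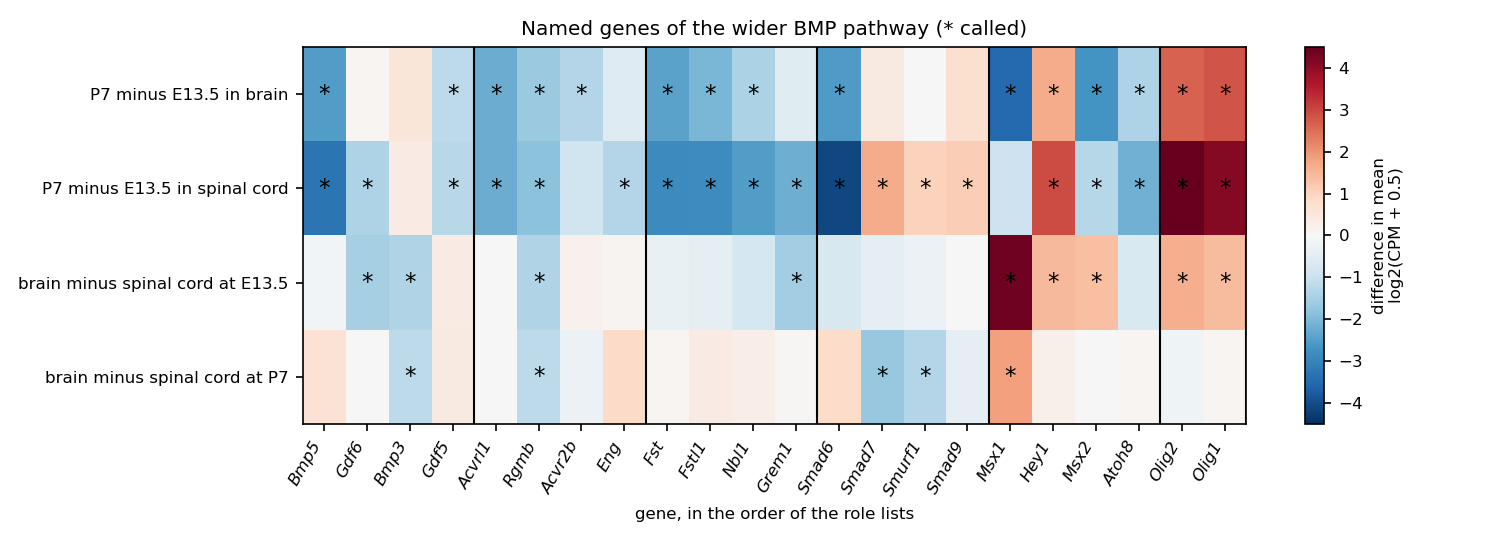
Differences in mean log2(CPM + 0.5) for the named genes of the wider pathway (columns, split by role list with vertical lines) in the 2 age and 2 region comparisons (rows), with red for higher and blue for lower in the group named first. Stars mark calls, and the strongest colours are *Msx1* at E13.5 between regions (4.39), *Olig2* (4.48) and *Olig1* (4.15) with age in cord and *Smad6* there (-4.09).

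The genes whose pattern over the 12 libraries was most like that of each member were looked up among 11407 protein-coding genes by Pearson r on log2(CPM + 0.5). These r values are descriptions, since the 12 libraries fall into 4 groups and share their scaling. *Id4* had the closest match, *Tmem131l* (r = 0.995) and *Mme* (0.994). *Bmpr1a* was nearest to *Clcn5* (0.991) and *Elovl2* (0.978), *Bmp4* to *Syne1* (0.986) and *Rnf128* (0.982), and *Bmp6* to *Slc7a11* (0.984) and *Itih2* (0.978). *Bmpr1b* was nearest to *Thbs1* (0.979) and *Tmsb10* (0.977), *Id3* to *Mgst1* (0.978) and *Cd248* (0.976), *Id1* to *Ptprs* (0.977) and *Hhat* (0.972), and *Bmp7* to *Mpp6* (0.976) and *Khnyn* (0.972). *Bmp2* with *Rapgef4* (0.966) and *Cd83* (0.963) and *Id2* with *Mphosph10* (0.962) and *Strap* (0.952) had the least close matches.

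In the annotation, no word of 50 bases of *Bmp2*, *Bmp7*, *Bmpr1b*, *Id1*, *Id2* or *Id3* was found in a transcript of another gene. The search read other transcripts in steps, so that shared stretches shorter than 75 bases can be missed. The share found was 2.18% for *Bmp4*, in 2 of its 4 transcripts, 4.55% for *Bmp6*, 3.77% for *Bmpr1a* and 2.08% for *Id4*. A stretch of at least 50 bases was shared with 126 other genes for *Bmp4* and with 1 other gene each for *Bmp6*, *Bmpr1a* and *Id4* (*Txndc5*, *Gm17110* and *Gm49291*). The search covered both strands. Without the strand, read pairs that lie wholly within such stretches cannot be assigned to 1 gene, whereas pairs that reach beyond them can be. The genes that overlap *Bmp4* and *Bmpr1a* on the opposite strand, *Gm15217* and *Gm17110*, had at most 0.169 and 0.143 CPM.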

How the data were processed

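Total RNA of 12 libraries was sequenced from sorted *Pdgfra*/GFP+ cells, and the titles gave each library's group and replicate number. The authors aligned reads with STAR (2.5.0a) to mm10, counted them per GENCODE M8 gene with featureCounts (1.5.0-p1), with multimapping reads shared fractionally and rounded, and tested with limma-voom. The submitters' processing notes also name HISAT2 (2.0.5) and StringTie (1.3.1c). The libraries were strand-specific, but whether counting used the strand is not given in the sources used here. The authors deposited CPM values, in which the counts of all 12 columns were divided by a rescaled library size (0.472 to 1.20 times the recovered reads). With that factor 9 columns sum to no more than CPM allows. The other 3 sum to more and were treated as deposited signal on the same scale, called CPM in the text as well. All 100% of the values were whole multiples of 1 read within a tolerance of 0.01, so that counts could be recovered. The table has 47072 rows, and 3 repeated identifiers were dropped. Symbols came from GENCODE M21 and were found for 46488 identifiers.

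The filter, taken from the study, required 0.7 CPM or more in 3 or more libraries (18319 genes). limma (3.58.1, R 4.3.3) with an intensity trend was fitted to log2(CPM + 0.5), with 1 mean per group, and contrasts were adjusted by Benjamini-Hochberg over all genes tested. A count test was not the main test because the unit is not counts. A gene was called at adjusted p under 0.05 and more than 2-fold, the study's thresholds. Changes on the log2(CPM + 0.5) scale understate those of low genes. Alternatives were limma-voom and edgeR (4.0.16) quasi-likelihood on recovered reads, TMM and DESeq2 (1.42.0) median-ratio scaling, pseudocounts of 0.1 and 1, no filter and a filter of 2 CPM, the replicate number as a block, P7 replicates 1 and 2 averaged, and each library left out. The tests were checked on simulated counts. The 10 genes, the role lists and the marker lists were chosen with earlier results of these data known. Beside the 10, the text names from each role list up to 4 called genes with the largest change in any contrast, 1 CPM or more as the higher group mean and no overlap of the libraries, and for each of the 10 the 2 genes with the highest r among protein-coding genes with a mean of at least 5 CPM and a symbol that is no clone name. Some genes that this rule covers are left out of the text. Floors of 3 reads cover counting error only.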

Additional observations from a re-analysis of the deposited data

Results flagged for a closer look

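The age change differed between brain and spinal cord by the interaction test (limma, adjusted p under 0.05 and more than 2-fold) for 13 named genes. Of all genes tested, 16.3% were called in it. Apart from *Bmp2* and *Bmp6*, these genes were named because they were called in some contrast of these data. The count of 13 is therefore no support. For each gene the interaction is given as the log2 age change in brain minus that in spinal cord. Of the ligands and receptors, *Bmp2* had 2.56 and *Bmp6* 2.52, *Bmp2* being higher at P7 in brain and *Bmp6* lower at P7 in spinal cord. In the wider pathway the value was positive for *Gdf6* (1.48), *Nbl1* (1.08), *Grem1* (1.65) and *Smad6* (1.54), all of which had the more negative age change in spinal cord. *Gdf6* passed the filter on low values only through the E13.5 spinal cord libraries and *Grem1* only through E13.5 libraries, so that these 2 calls rest on the groups that let them in. The *Gdf6* value was 0.99 with a pseudocount of 1, where the call was lost, and 3.95 by limma-voom on recovered reads.

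It was negative for *Smad7* (-1.27), *Smurf1* (-1.05), *Msx1* (-2.55), *Hey1* (-1.26), *Msx2* (-1.39), *Olig2* (-1.81) and *Olig1* (-1.32). For *Msx1* and *Msx2*, the latter of which passed the filter only through E13.5 libraries, this went with the larger decrease in brain, and for the other 5 with the more positive age change in spinal cord. Under median-ratio scaling the interaction was -0.97 for *Smad7*, -0.74 for *Smurf1*, -0.95 for *Hey1* and -1.004 for *Olig1*, and the first 3 were then under 2-fold while *Olig1* missed the p threshold. The *Olig1* interaction also missed it without E13.5 brain replicate 2 (-1.08) or 3 (-1.16). The *Nbl1* interaction was under 2-fold without E13.5 brain replicate 2 (0.94), E13.5 spinal cord replicate 3 (0.89) or P7 spinal cord replicate 2 (0.99), and that of *Smurf1* without P7 brain replicate 1 (-0.95) or P7 spinal cord replicate 1 (-0.96) and under TMM scaling (-0.87). When P7 replicates 1 and 2 were averaged, *Nbl1* (0.99) and *Smurf1* (-0.91) were under 2-fold as well and *Olig1* missed the p threshold (-1.36, limma, adjusted p = 0.0657).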

How the results depend on the processing

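The counts of called genes stayed within 1.5 times their value under all 22 alternatives, for all genes tested, for the 10 genes and for the wider pathway. Over the alternatives the 10 genes had 5 or 6 calls with age in brain, 6 to 8 with age in spinal cord, 2 or 3 between regions at E13.5, 1 at P7 and 2 or 3 in the interaction. Of 1100 values of the 10 genes under an alternative, 1070 kept their direction and call, 7 lost the call, 8 gained it and 15 changed sign, none of these 15 being of a called value. *Id3* with age in brain lost its call under TMM (-0.98) and median-ratio scaling (-0.96), and *Id2* with age in spinal cord under median-ratio scaling (0.91) and a pseudocount of 1 (0.997), while *Bmp7* with age in spinal cord (-1.08) and *Id3* in the interaction (1.08) gained it under median-ratio scaling. Changes of sign under median-ratio scaling were seen for *Bmp4* (-0.029) and *Bmpr1b* (-0.020) between regions at E13.5, *Msx2* (0.0053), *Gdf6* (0.027) and *Olig2* (0.046) between regions at P7, *Bmpr1a* (0.063) and *Id1* (0.19) in the interaction and *Smurf1* (0.17) with age in brain. TMM scaling gave 0.16 for *Smurf1* with age in brain, 0.019 for *Gdf6* and 0.0098 for *Olig2* between regions at P7 and 0.080 for *Id1* in the interaction. Averaging P7 replicates 1 and 2 gave 0.040 for *Smurf1* with age in brain, limma-voom gave 0.10 for *Acvrl1* at E13.5, 0.61 for *Gdf6* at P7 and -0.079 for *Acvrl1* in the interaction, a pseudocount of 0.1 gave 0.083 for *Gdf6* at P7 and a pseudocount of 1 gave -0.056 for *Gdf5* in the interaction. With each library left out, the log2 values of genes that changed sign ran for age in brain from -0.18 to 0.068 for *Smurf1*. They ran between regions at E13.5 from -0.19 to 0.22 for *Bmp4*, -0.22 to 0.49 for *Bmpr1b*, -0.53 to 0.31 for *Id1*, -0.29 to 0.091 for *Bmp5*, -0.19 to 0.20 for *Acvrl1*, -0.020 to 0.29 for *Eng* and -0.27 to 0.16 for *Smad9*. They ran between regions at P7 from -0.23 to 0.13 for *Gdf6*, -0.16 to 0.12 for *Acvrl1*, -0.043 to 0.15 for *Grem1*, -0.070 to 0.019 for *Msx2* and -0.042 to 0.22 for *Atoh8*. They ran in the interaction from -0.60 to 0.23 for *Id1*, -0.24 to 0.29 for *Gdf5*, -0.20 to 0.20 for *Acvrl1* and -0.034 to 0.32 for *Rgmb*. Limma-voom and edgeR gave larger changes than the pseudocount allows for *Fst* (-4.92 and -5.10 with age in brain, beside -2.40) and *Msx2* (-5.48 and -5.62, beside -2.68). Replicate numbers are shared by the groups but the titles do not say that they mark a shared pool. The correlation of deviations between same-numbered brain and spinal cord libraries was 0.31, 0.082 and 0.41 at E13.5 and 0.013, 0.025 and 0.044 at P7, so that the numbers were not taken to pair the samples. With the replicate number as a block, 5074 genes were called with age in brain (5068 without it), 6438 in spinal cord (6436), 1595 between regions at E13.5 (1595), 1212 at P7 (1213) and 2994 in the interaction (2990), and the 10 genes had 6, 7, 2, 1 and 2 calls with the block. Precision was limited by the 3 libraries per group, and for *Bmp2* in E13.5 brain by its 18 to 40 reads. The causes of these changes were not tested.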
